A study of Mus musculus with 4 samples.

Results

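Expression of 41 lysosome and autophagy genes was followed in T29 cells, a mouse thymic lymphoma line, after exposure to a gamma-secretase inhibitor. The genes came from a list of 42 known components, drawn up with earlier results of these data known, and were read among 18193 genes in all. Cd63 was not analysed here. A gene was represented by its probe set, a group of short array probes for 1 transcript, with the highest mean over the 4 arrays, among probe sets annotated to that gene alone. The cells received either the inhibitor MRK003 (GSI, 2 arrays) or the solvent DMSO (2 arrays). The labels carry the same treatment text for all samples, 5 mM of inhibitor over 36 h, so the groups rest on the sample titles and the dose unit could not be checked. The labels give no genotype for T29, and nothing in them says that the replicates were grown apart. The p-values therefore rest on a spread between arrays that may be technical. Each array holds RNA of a whole culture, so a change in every cell and a change in the share of cells in some state cannot be told apart.

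Lysosomes are acidic compartments in which hydrolases break down proteins, glycans and lipids. A proton pump, the vacuolar ATPase, acidifies them, and heavily glycosylated membrane proteins line them. Autophagy encloses cytoplasm in a double membrane and delivers it to the lysosome, while the transcription factors TFEB and TFE3, held in the cytoplasm by the growth-sensing kinase complex mTORC1, switch on many genes of both systems.

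With GSI, 11 of the 41 genes rose and 0 fell (limma, Benjamini-Hochberg adjusted p under 0.05 over all 18193 genes). Of all genes tested, 2.56% rose and 1.56% fell. Before adjustment, p was under 0.05 for 21 of the 41 genes upwards and for 2 downwards, where the shares over all genes were 10.8% and 10.7%. Means were higher with GSI for 32 of the 41 genes (78.0%), against 47.0% of all genes. Most of the 41 were well expressed: 37 reached the median gene's mean level of 5.78 on the log2 scale, and all 11 rises were among these (29.7%), against 4.5% of all genes at or above that level. The rises ran from 1.38-fold for Lamp2 to 2.75-fold for Ctsl, and 2 of them, Ctsl and Grn, reached 2-fold. Rises occurred in every role except the transcription factors: 4 of 16 hydrolases, 3 of 3 other lumenal proteins, 1 of 5 membrane proteins, 1 of 5 pump subunits, 0 of 2 transcription factors and 2 of 10 autophagy genes. The median difference, GSI minus DMSO, was 0.25 on the log2 scale over the 41 genes and -0.01 over all genes. Both GSI arrays lay above both DMSO arrays for 26 genes and below them for 4, where the shares over all genes were 23.7% and 27.7%. The counts needed all 4 arrays: without DMSO replicate 1, DMSO replicate 2, GSI replicate 1 or GSI replicate 2, limma called 0 of the 41 genes. Those fits called few genes of any kind, 0 to 1 higher and 0 to 5 lower of all 18193. Without 1 array the differences lay between 1.38 and 1.54 on the log2 scale for Ctsl and between 0.97 and 1.07 for Grn. Npc2 and Tpp1 moved more, between 0.51 and 0.78 and between 0.71 and 0.98. Lamp2 and Gabarap moved less, between 0.44 and 0.48 and between 0.62 and 0.68. In those fits the smallest adjusted p among the 11 genes was 0.0766, 0.0822, 0.110 and 0.0784, in that order.

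**Figure D1:**
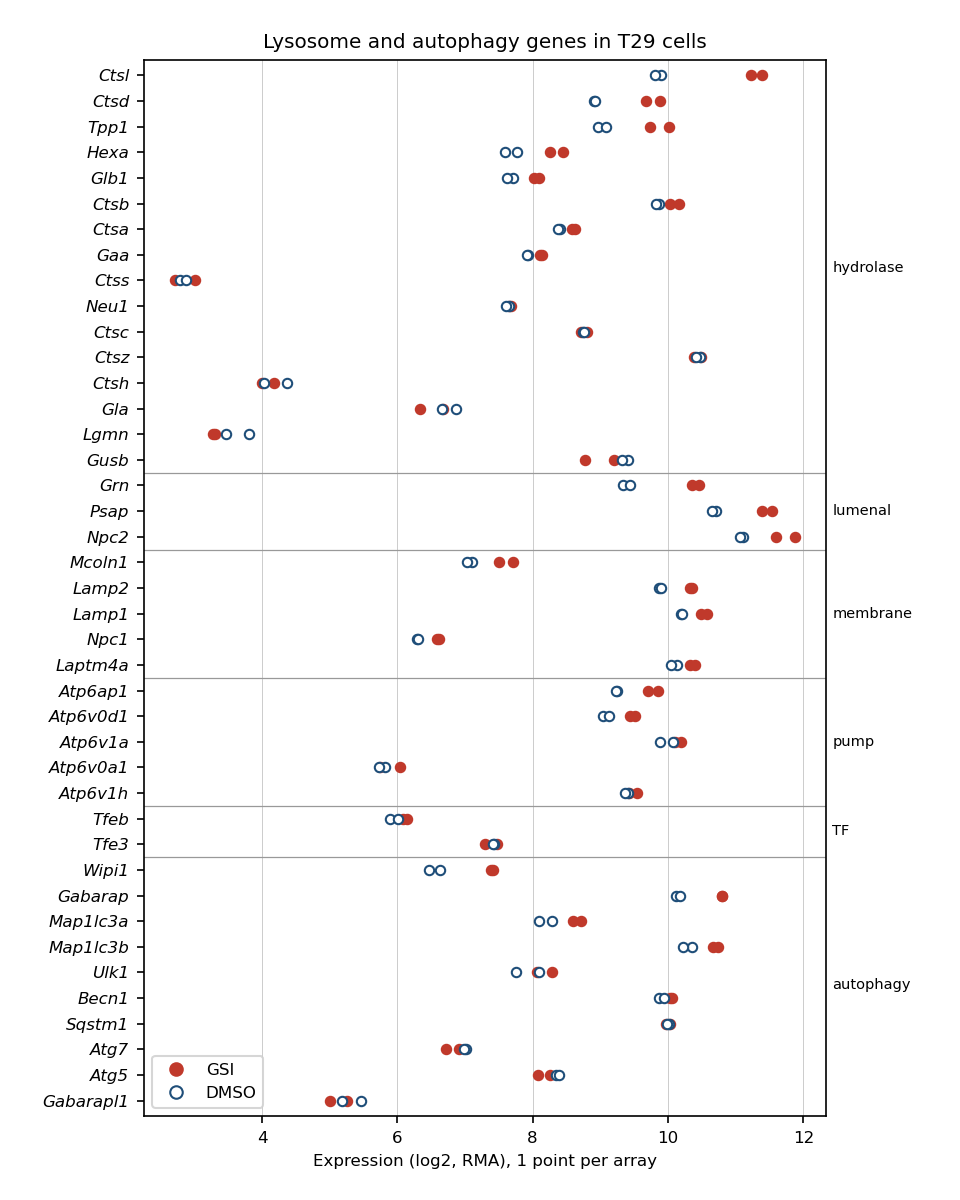
Expression of the 41 genes on the log2 scale, 1 point per array, GSI filled and DMSO open, grouped by role with the greatest difference at the top of each role. The GSI points of Ctsl (11.39 and 11.23) lie far to the right of its DMSO points (9.89 and 9.81), whereas the points of Sqstm1, Ctsc and Ctsz overlap.

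Among the hydrolases, 4 genes rose, encoding 2 cathepsins, a peptidase and a hexosaminidase subunit. Ctsl, encoding the cysteine protease cathepsin L, had log2 values of 11.39 and 11.23 on the GSI arrays, against 9.89 and 9.81 on the DMSO arrays (probe set 1451310_a_at). The GSI arrays were higher by far more than the arrays of a group differed, with a difference of 1.46 ± 0.10 (SE) on the log2 scale, 2.75-fold (limma, adjusted p = 0.00374). Ctsd, encoding the aspartic protease cathepsin D, stood at 9.88 and 9.68 with GSI and at 8.91 and 8.92 with DMSO (1448118_a_at). It rose 1.83-fold, by 0.87 ± 0.10 on the log2 scale (SE; limma, adjusted p = 0.0135), and its DMSO arrays almost coincided. Tpp1, whose product removes tripeptides from the ends of proteins, had 10.01 and 9.74 with GSI, against 8.97 and 9.09 with DMSO (1448313_at). Its rise was 1.80-fold, by 0.84 ± 0.12 (SE; limma, adjusted p = 0.0252), with no overlap between groups. Hexa, encoding the alpha subunit of beta-hexosaminidase, a ganglioside-degrading enzyme, measured 8.45 and 8.26 with GSI and 7.59 and 7.78 with DMSO (1449024_a_at). This was 1.59-fold higher, by 0.67 ± 0.11 (SE; limma, adjusted p = 0.0386), although the arrays of each group lay farther apart than those of Ctsd with DMSO.

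The other 12 hydrolase genes did not pass. Glb1, encoding the lysosomal beta-galactosidase, came nearest with 8.10 and 8.03 with GSI, against 7.71 and 7.62 with DMSO, a difference of 0.40 ± 0.09 (SE; limma, adjusted p = 0.0694). Both GSI arrays of Glb1 lay above both DMSO arrays, as for 23.7% of all genes. Lgmn, encoding the asparaginyl protease legumain, had 3.27 and 3.31 with GSI and 3.47 and 3.80 with DMSO, a difference of -0.35 (limma, adjusted p = 0.198). These levels lay well below the median gene's, as did those of Ctsh and Ctss, so little can be read from them. Ctsz, encoding the carboxypeptidase cathepsin Z, was bright and level, at 10.39 and 10.48 with GSI and 10.48 and 10.42 with DMSO. Ctsb, encoding cathepsin B, had 10.17 and 10.03 with GSI, against 9.87 and 9.83 with DMSO, a difference of 0.25 ± 0.09 (SE; limma, adjusted p = 0.199). Of the 6 cysteine cathepsin genes on the list, Ctsl thus passed, while the others differed by -0.12 (Ctsh), -0.01 (Ctsz), 0.00 (Ctsc, whose product activates granzymes), 0.03 (Ctss) and 0.25 (Ctsb).

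The remaining hydrolases ran in both directions. The protective-protein gene Ctsa differed by 0.22, the acid glucosidase gene Gaa by 0.20 and the sialidase gene Neu1 by 0.03. The galactosidase gene Gla differed by -0.26. Gusb, encoding beta-glucuronidase, had 8.77 and 9.20 with GSI and 9.41 and 9.33 with DMSO, a difference of -0.38 ± 0.15 (SE; limma, adjusted p = 0.223). Both GSI arrays of Gusb were lower, but they lay 0.43 apart, the widest gap between the GSI arrays among the 41 genes. Over the 41 genes the median gap was 0.115 between the GSI arrays and 0.079 between the DMSO arrays, on the log2 scale, against 0.108 and 0.109 over all genes.

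All 3 lumenal proteins that are not hydrolases rose. Grn encodes progranulin, which lysosomal proteases cut into granulins, and had 10.46 and 10.36 with GSI, against 9.34 and 9.44 with DMSO (1438629_x_at). It was 2.02-fold higher, by 1.02 ± 0.09 (SE; limma, adjusted p = 0.00743). Psap, encoding the precursor of the saposins, which present lipids to hydrolases, measured 11.54 and 11.39 with GSI and 10.71 and 10.65 with DMSO (1415687_a_at). The rise was 1.73-fold, by 0.79 ± 0.09 (SE; limma, adjusted p = 0.0150), and the groups lay apart. Npc2, whose product hands cholesterol to the membrane protein NPC1, stood at 11.87 and 11.60 with GSI, against 11.11 and 11.07 with DMSO (1448513_a_at). Its rise of 0.65 ± 0.12 (SE), 1.56-fold, was close to the threshold (limma, adjusted p = 0.0447).

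For the 5 membrane protein genes, both GSI arrays lay above both DMSO arrays in each case, against 23.7% of all genes. Of the 5 only 1 passed. Lamp2, encoding a major lysosomal membrane glycoprotein that also serves chaperone-mediated autophagy, had 10.32 and 10.36 with GSI and 9.86 and 9.89 with DMSO (1434503_s_at). It rose 1.38-fold, by 0.46 ± 0.08 (SE; limma, adjusted p = 0.0446), with replicates almost on top of each other. Mcoln1, encoding the lysosomal calcium channel mucolipin 1, had 7.71 and 7.50 with GSI, against 7.11 and 7.03 with DMSO. Its difference of 0.54 ± 0.10 (SE) was larger than that of Lamp2, but its adjusted p was 0.0520 (limma), the smallest among the genes not called. Lamp1, the other major membrane glycoprotein gene, measured 10.58 and 10.49 with GSI and 10.20 and 10.21 with DMSO, a difference of 0.33 (limma, adjusted p = 0.0999). Laptm4a, encoding a small transmembrane protein of late endosomes and lysosomes, had 10.40 and 10.33 with GSI, against 10.14 and 10.04 with DMSO, and differed by 0.28. The cholesterol exporter gene Npc1 differed by 0.30 (limma, adjusted p = 0.114).

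Among the proton pump genes, the accessory subunit gene Atp6ap1 rose and the 4 others did not pass. Atp6ap1 had 9.85 and 9.71 with GSI, against 9.25 and 9.23 with DMSO (1449622_s_at), a 1.46-fold rise of 0.55 ± 0.09 (SE; limma, adjusted p = 0.0386). Atp6v0d1, a subunit of the membrane-bound part, measured 9.51 and 9.44 with GSI and 9.04 and 9.12 with DMSO, with a difference of 0.39 (limma, adjusted p = 0.0703). Both GSI arrays lay above both DMSO arrays for 4 of the 5 pump genes, against 23.7% of all genes. The groups of Atp6v0a1 overlapped. Atp6v1a, the catalytic subunit that splits ATP, had 10.11 and 10.19 with GSI, against 9.88 and 10.07 with DMSO, a difference of 0.17 that was smaller than the gap between its DMSO arrays. Atp6v1h, a regulatory subunit, stood at 9.42 and 9.54 with GSI and 9.41 and 9.37 with DMSO, a difference of 0.09. Atp6v0a1, another membrane-part subunit, differed by 0.11.

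Neither transcription factor gene passed. Tfeb had 6.08 and 6.14 with GSI, against 5.89 and 6.01 with DMSO, a difference of 0.16 ± 0.09 (SE; limma, adjusted p = 0.377). Tfe3 measured 7.47 and 7.29 with GSI and 7.42 and 7.42 with DMSO, a difference of -0.04 ± 0.10 (SE; limma, adjusted p = 0.874). The array reads transcript levels, and the location or phosphorylation of these proteins was not measured.

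In autophagy, a phosphoinositide-binding protein gene and a gene of the ATG8 family rose. Wipi1, whose product binds phosphatidylinositol 3-phosphate on forming autophagosomes, had 7.39 and 7.42 with GSI, against 6.47 and 6.63 with DMSO (1439060_s_at). It was 1.81-fold higher, by 0.86 ± 0.09 (SE; limma, adjusted p = 0.0120), but by 0.54 when its 6 probe sets were averaged (adjusted p = 0.0365). The ATG8 family consists of small ubiquitin-like proteins that are joined to lipid on the autophagosome membrane. Its member Gabarap measured 10.80 and 10.79 with GSI and 10.12 and 10.18 with DMSO (1416937_at), a 1.57-fold rise of 0.65 ± 0.08 (SE; limma, adjusted p = 0.0186). Map1lc3b, encoding LC3B, had 10.66 and 10.74 with GSI, against 10.35 and 10.22 with DMSO, a difference of 0.41 (limma, adjusted p = 0.0696). Map1lc3a, encoding LC3A, stood at 8.71 and 8.59 with GSI and 8.10 and 8.29 with DMSO, a difference of 0.46 (limma, adjusted p = 0.0750). For Gabarap, Map1lc3b and Map1lc3a both GSI arrays lay above both DMSO arrays, as for 23.7% of all genes. The dimmer family member Gabarapl1 had 5.25 and 5.00 with GSI, against 5.47 and 5.18 with DMSO, so its groups overlapped.

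Genes acting at the start of autophagy and in conjugation did not pass. Sqstm1, encoding the cargo receptor p62, was at 10.03 and 9.97 with GSI and at 10.02 and 9.98 with DMSO, a difference of 0.00 ± 0.08 (SE). Ulk1, the initiating kinase, differed by 0.25, and its DMSO arrays lay 0.34 apart, the widest DMSO gap among the 41 genes. Becn1, a subunit of the lipid kinase complex that starts the membrane, differed by 0.14. Atg5 and Atg7, of the conjugation machinery that lipidates ATG8 proteins, had differences of -0.19 each (limma, adjusted p = 0.316 and 0.337). For each of them both GSI arrays lay below both DMSO arrays, as for 27.7% of all genes.

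**Figure D2:**
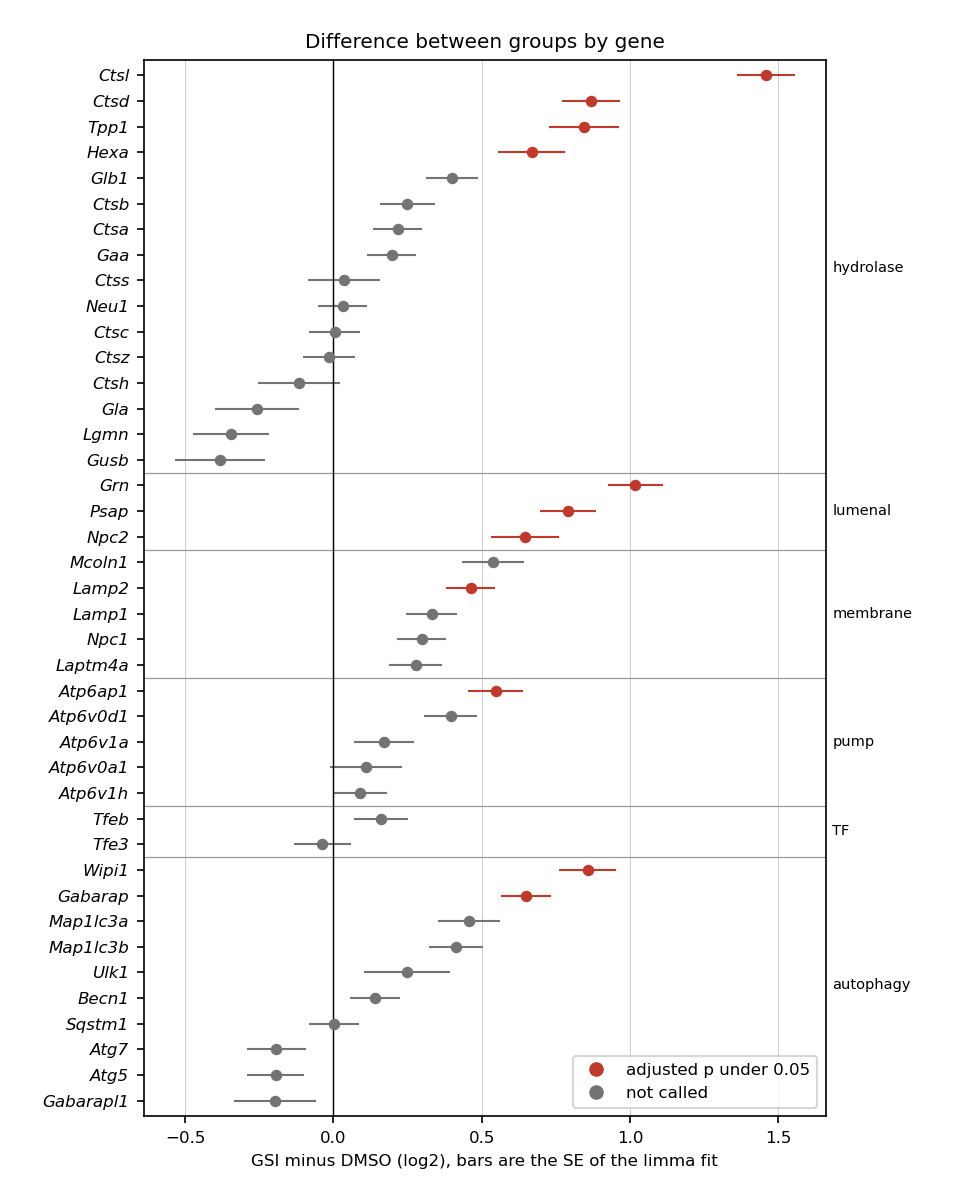
GSI minus DMSO on the log2 scale for each of the 41 genes, with the SE of the limma fit as bars and called genes in red. The 11 red points run from 0.46 (Lamp2) to 1.46 (Ctsl), and Mcoln1 at 0.54 is grey although it lies to the right of Lamp2.

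Several genes had further probe sets, and these differed in level and in size of change. The 41 genes had 97 probe sets, of which 13 rose and 0 fell when all 45037 probe sets were tested with limma; over all probe sets 0.948% rose. The 13 belonged to 8 genes. In that wider test Hexa, Npc2, Atp6ap1 and the probe set chosen for Lamp2 did not pass (adjusted p = 0.0703, 0.0784, 0.0728 and 0.0844). Of the 16 further probe sets of called genes, all had a higher mean with GSI and 6 passed. The probe sets of Grn gave 1.02, 1.06 and 1.08 on the log2 scale, and those of Psap 0.79 and 0.79. Lamp2 was less uniform: its chosen probe set and 1 other gave 0.46 and 0.35, whereas its 2 dimmer probe sets gave 0.83 and 1.02 and passed (limma, adjusted p = 0.0370 and 0.0180). Lamp2 is known to be spliced into isoforms with different tails, but which probe set reads which isoform was not analysed here. The probe sets of Wipi1 ranged from 0.12 to 1.09. For Ctsl the chosen probe set gave 1.46. Its other, dim probe set, at a mean level of 4.47, gave 0.82 and did not pass (limma, adjusted p = 0.189). Averaging the 2 gave 1.14 (limma, adjusted p = 0.00808). Map1lc3b had 3 bright probe sets at 0.41, 0.58 and 0.53, none of which passed. For probe sets whose names end in _s_at or _x_at, such as those chosen for Grn, Lamp2, Wipi1 and Atp6ap1, the manufacturer's naming marks possible binding to related transcripts.

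**Figure D3:**
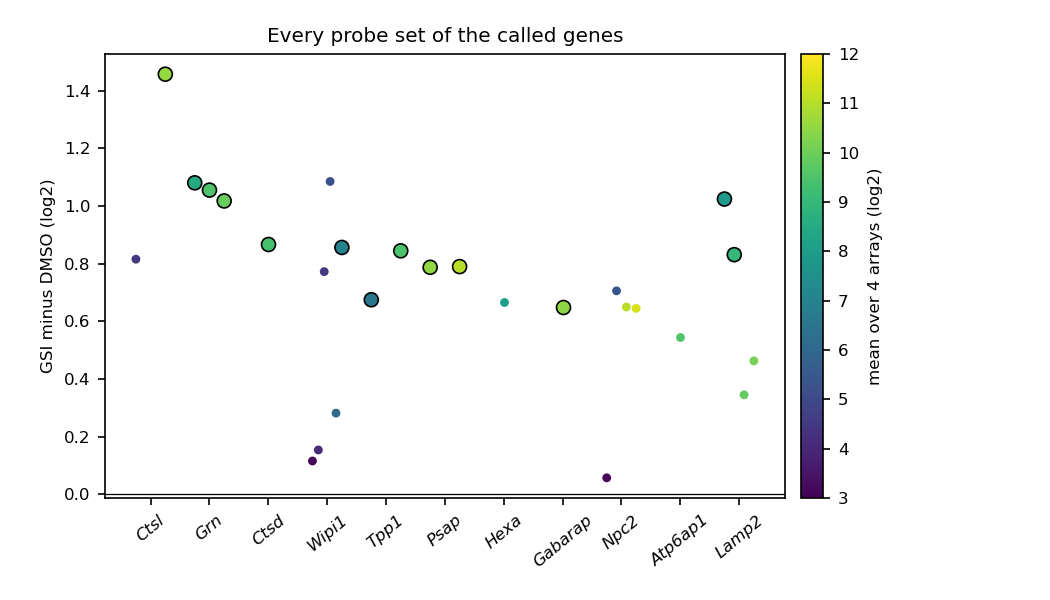
GSI minus DMSO on the log2 scale for every probe set of the 11 called genes, dimmest to brightest from left to right within a gene, coloured by mean level. Large ringed points passed when all probe sets were tested; the 3 probe sets of Grn lie together near 1, while those of Lamp2 spread from 0.35 to 1.02.

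Further genes of the same roles, 118 measured of 127, were listed from general knowledge, with earlier results of these data known. They gave 11 rises and 1 fall. That is 9.32% higher, against 2.56% over all genes, and their median difference was 0.18 on the log2 scale. At or above the median gene's level, 10 of 99 rose (10.1%), against the 4.5% of all such genes given above. In this list 72 genes (61.0%) had both GSI arrays above both DMSO arrays and 12 below, against 23.7% and 27.7% of all genes. Again 0 of these genes passed when any 1 array was left out, in fits that called 0 to 1 genes higher and 0 to 5 lower of all 18193. Without 1 array the difference lay between 1.24 and 1.35 on the log2 scale for Fnip1 and between 1.05 and 1.15 for Laptm5.

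Of 26 further hydrolase genes 4 rose, against 2.56% of all genes. Ctso, encoding cathepsin O, rose 1.91-fold and the sulphatase gene Arsa 1.60-fold. The DNA-degrading enzyme gene Dnase2a rose 1.57-fold and Aga, which cleaves sugars from asparagine, 1.38-fold. Ctso had 6.79 and 6.93 with GSI, against 5.98 and 5.88 with DMSO (limma, adjusted p = 0.0101). Its difference of 0.93 on the log2 scale became 0.45 when its 2 probe sets were averaged (limma, adjusted p = 0.0328). The groups of the other 3 lay apart as well: Arsa had 7.49 and 7.56 with GSI, against 6.75 and 6.95 with DMSO. Dnase2a had 7.59 and 7.64 with GSI, against 7.03 and 6.91 with DMSO. Aga had 9.19 and 9.07 with GSI, against 8.66 and 8.67 with DMSO. Of 18 membrane genes 3 rose, against 2.56% of all genes. Laptm5, a lysosomal membrane protein of blood cells, changed most among them. Laptm5 stood at 11.81 and 11.73 with GSI and 10.72 and 10.62 with DMSO, 2.14-fold higher (limma, adjusted p = 0.00611). The difference of Laptm5, 1.10 on the log2 scale, became 0.73 when its 5 probe sets were averaged (limma, adjusted p = 0.00842). Scarb2, the receptor that carries glucocerebrosidase to lysosomes, rose 1.56-fold, and Ostm1, the partner of a chloride transporter, 1.45-fold. Scarb2 had 9.49 and 9.29 with GSI, against 8.73 and 8.78 with DMSO. Ostm1 had 9.89 and 9.74 with GSI, against 9.32 and 9.23 with DMSO. Of 13 pump genes Atp6v1d rose, by 1.43-fold, where 2.56% of all genes rose. A higher mean was seen for 11 of the 13, against 47.0% of all genes. Atp6v1d had 10.48 and 10.52 with GSI, against 9.92 and 10.05 with DMSO. None of 7 lumenal and sorting genes passed with limma, though before adjustment p was under 0.05 for 2 upwards and 2 downwards, against 10.8% and 10.7% of all genes. Gm2a, a lipid-presenting activator, had 8.93 and 8.62 with GSI, against 8.42 and 8.27 with DMSO, and differed by 0.43 (limma, adjusted p = 0.128). Gnptab, encoding the enzyme that tags hydrolases with mannose 6-phosphate, had 7.75 and 7.90 with GSI, against 8.27 and 8.25 with DMSO, a difference of -0.43 (limma, adjusted p = 0.0642).

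Of 36 further autophagy genes 2 rose, not far from the shares of 2.56% over all genes and 4.5% at or above the median gene's level. Tecpr1, which acts in autophagosome maturation, had 8.67 and 8.66 with GSI, against 7.63 and 7.72 with DMSO, 1.98-fold higher (limma, adjusted p = 0.00650). Calcoco1, a receptor for autophagy of the endoplasmic reticulum, had 6.29 and 6.13 with GSI, against 5.31 and 5.27 with DMSO, 1.89-fold higher (limma, adjusted p = 0.0103). Averaging probe sets lowered both differences, to 0.54 for Tecpr1 and 0.56 for Calcoco1 on the log2 scale, against 0.99 and 0.92 with the brightest probe set, and both still passed (limma, adjusted p = 0.0212 and 0.0292). Among 18 genes that control TFE factors and mTORC1, the related folliculin partners Fnip1 and Fnip2 moved in opposite directions. Fnip1 stood at 8.65 and 8.60 with GSI and 7.39 and 7.28 with DMSO, a 2.45-fold rise (limma, adjusted p = 0.00402). The difference of Fnip1, 1.29 on the log2 scale, became 1.04 when its 3 probe sets were averaged (limma, adjusted p = 0.00579). Fnip2 had 6.22 and 6.27 with GSI, against 6.73 and 6.69 with DMSO, a fall with a difference of -0.47 (limma, adjusted p = 0.0447). When every probe set was tested, Arsa, Aga, Scarb2, Ostm1, Atp6v1d and Fnip2 did not pass (adjusted p = 0.0568 to 0.0935).

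**Figure D4:**
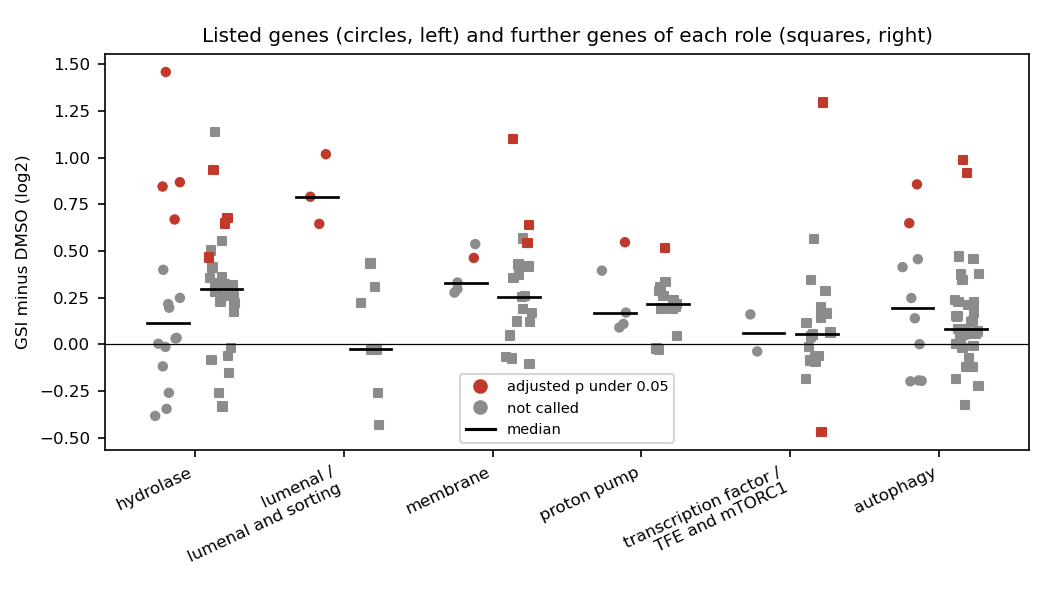
GSI minus DMSO on the log2 scale by role, for the 41 genes (circles, left) and the 118 further genes (squares, right), called genes in red and medians as bars; points are spread sideways for legibility. The 3 lumenal proteins are all red, and Fnip1 (1.29) and Fnip2 (-0.47) are the red squares farthest apart within a role.

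TFEB and TFE3 bind the E-box core CACGTG, in lysosomal genes often as part of a longer palindrome, the CLEAR element. Other factors, among them Myc, bind the same core. Windows from 250 bases before to 50 after a start site were taken from RefSeq (GRCm38.p6) and matched 35 of the 41 genes. The core, which reads the same on both strands, occurred in 13 of the 35 genes (37.1%), against 10.2% of the 14452 measured genes with a window. With 1 flanking base of the CLEAR element (TCACGTG on either strand, a subset of the matches above) the count was 11 genes (31.4%), against 5.80%. Of the 11 called genes 2 held the core, Ctsd and Ctsl, and of the 24 others with a window 11 did. For 5 of the 13 genes, Ctsl, Ctsa, Lgmn, Atp6v1a and Atg7, the core lay only in windows whose start was 252 to 27969 bases inside the annotated gene, which leaves 8 genes with the core at or near the annotated 5′ end. The share over all measured genes was not split in this way. The parts before the start are shown for 2 called genes, with and without the core, and for 2 membrane genes with repeated cores that did not pass. All run 5′ to 3′ along the gene, with CACGTG in capitals.
Ctsd, chr7:142387828-142388077, minus strand: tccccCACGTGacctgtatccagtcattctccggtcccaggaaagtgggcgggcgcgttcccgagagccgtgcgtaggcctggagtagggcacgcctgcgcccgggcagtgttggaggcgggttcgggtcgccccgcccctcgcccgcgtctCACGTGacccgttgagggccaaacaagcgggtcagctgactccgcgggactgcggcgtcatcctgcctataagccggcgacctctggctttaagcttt
Grn, chr11:102430257-102430506, plus strand: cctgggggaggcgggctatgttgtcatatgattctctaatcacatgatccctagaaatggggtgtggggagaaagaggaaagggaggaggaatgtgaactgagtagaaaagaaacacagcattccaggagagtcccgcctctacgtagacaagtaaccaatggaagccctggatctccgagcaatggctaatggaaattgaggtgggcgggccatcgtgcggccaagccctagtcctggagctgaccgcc
Mcoln1, chr8:3500269-3500518, plus strand: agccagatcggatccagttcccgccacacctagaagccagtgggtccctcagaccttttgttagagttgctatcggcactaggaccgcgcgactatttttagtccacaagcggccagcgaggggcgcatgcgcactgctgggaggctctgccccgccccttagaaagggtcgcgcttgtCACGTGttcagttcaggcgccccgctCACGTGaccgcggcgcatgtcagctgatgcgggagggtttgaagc
Lamp1, chr8:13158911-13159160, plus strand: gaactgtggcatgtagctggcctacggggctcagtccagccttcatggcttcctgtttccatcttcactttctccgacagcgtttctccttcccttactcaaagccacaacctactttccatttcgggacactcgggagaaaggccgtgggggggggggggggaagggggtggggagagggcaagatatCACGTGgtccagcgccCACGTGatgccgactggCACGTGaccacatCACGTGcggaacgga
Ctsd, which rose 1.83-fold, held 2 copies, and Grn, which rose 2.02-fold, held 0. Mcoln1, 1.45-fold higher with GSI but not called, held 2 copies, and Lamp1, 1.26-fold higher and not called, held 4. These are matches of letters and show neither binding nor its absence.

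Gene medians per array lay between 5.77 and 5.82, and arrays of a group correlated at 0.9970 (GSI) and 0.9959 (DMSO) over probe sets, which are not independent replicates. The GSI arrays differed by 2-fold or more at 14 probe sets and the DMSO arrays at 87. Bnip3, a mitophagy receptor gene among the further genes, had 7.84 and 9.09 with GSI, against 7.03 and 10.34 with DMSO. T lineage markers fitted the label of a thymic lymphoma: 7 of 9 were above the array medians, with Cd3d between 12.32 and 12.65 on all arrays, while Cd2 and Cd5 were dim, at means of 4.18 and 4.05. Of these 9 markers, measured of 10 listed, 2 rose and 1 fell, against 2.56% and 1.56% of all genes. Cd247 differed by 0.81 on the log2 scale, Thy1 by 0.53 and Cd3g by -0.47 (limma, adjusted p = 0.0136, 0.0409 and 0.0409). For all 9 the groups did not overlap. GSI lay above DMSO in 4 and below in 5, against 23.7% and 27.7% of all genes. The part of these shifts in the results was not tested. Macrophages are rich in lysosomes, and 12 of 13 myeloid markers lay below the array medians on all 4 arrays. None of the 13 passed with limma, and before adjustment p was under 0.05 for 1 upwards and 1 downwards, against 10.8% and 10.7% of all genes. Their summed level, back-transformed, was 294.5 to 320.2 with GSI and 305.5 to 311.3 with DMSO, and the defining macrophage gene Adgre1 was at 4.51 and 4.20 with GSI, against 4.36 and 4.24 with DMSO. Itgam differed by 1.05 from a dim 3.27 with DMSO (limma, adjusted p = 0.0561). B lineage markers summed to 100.1 to 111.9 with GSI and 108.2 to 112.1 with DMSO. Stromal and epithelial markers summed to 303.7 to 312.8 with GSI and 517.7 to 571.2 with DMSO, with 1 of 8, the growth factor receptor gene Pdgfrb, lower by limma. Pdgfrb had 7.39 and 7.42 with GSI, against 8.77 and 8.60 with DMSO. Without it the other 7 summed to 135.9 and 142.0 with GSI, against 134.8 and 129.2 with DMSO. The part of the non-T markers in the results was not tested.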

How the data were processed

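RNA of 4 samples was measured on Affymetrix expression arrays. The deposited values are expression on the log2 scale, made with RMA per the submitters' processing notes. No source used here gives the version or settings of RMA. RMA compresses differences of dim probe sets. The platform annotation paired 34945 of 45037 non-control probe sets with 1 gene, 932 with several and 9160 with none. Symbols were updated through RefSeq gene identifiers (GRCm38.p6). Differences between GSI and DMSO were tested over 18193 genes in limma 3.58.1 (R 4.3.3; lmFit, eBayes, two-sided, no covariate), with Benjamini-Hochberg adjustment and calls under 0.05, on 5.80 total degrees of freedom. SE is that of the fit. The number of arrays limits the precision. The step was tested on simulated data. The gene lists, roles and markers were chosen with earlier results of these data known. Values per array are given for every called gene and, of the others, for the 2 with the smallest p and the 2 brightest per role, and of the 118 further genes for up to 4 called per role, or the 2 with the smallest p. Values beyond that rule (Gusb, Gabarapl1, Bnip3, markers and probe sets) were chosen after they were seen. Alternatives were other probe set choices, a filter on dim genes, an intensity trend with robust prior, centring, cyclic loess, a replicate block, a least difference of 2-fold, and fits that left out 1 array. The marker sum without Pdgfrb and the distance of a window's start from the annotated 5′ end (limit 100 bases) were added after seeing the data.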

Additional observations from a re-analysis of the deposited data

How the results depend on the processing

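The 11 called genes had higher means with GSI in every fit run, and 0 of the 41 fell in any. For fits without 1 array the higher means follow from their non-overlapping groups. The dim filter, intensity trend, replicate block, test of every probe set and minimum difference reuse the same values, so there the differences could not change. Only probe set means, centring and cyclic loess could have changed a direction. With GSI against DMSO, 466 genes rose and 284 fell in all, 11 and 0 of the 41 lysosome and autophagy genes, and 11 and 1 of the 118 further genes. Leaving out genes below the median level kept 9097 genes, among them 37 of the 41 and 99 of the further genes. That fit called 1009 and 829 of the 9097, 18 of the 37, and 29 and 2 of the 99. An intensity trend with robust prior, over all 18193 genes, gave 1042 and 899, 18 of the 41, and 30 and 2 of the 118. Both added Glb1, Lamp1, Mcoln1, Atp6v0d1, Map1lc3a and Map1lc3b. Centring moved the median of all genes to -0.04 and gave 479 falls in all and 2 among the further genes, as did probe set means for the latter (2). Centring and cyclic loess each added Mcoln1. Testing every probe set kept 7 of the 11 genes, and 6 and 0 of the further genes. A minimum difference of 1 on the log2 scale left 111 and 66, 2 (Ctsl and Grn), and 2 and 0. With the replicate number as a block limma called 147 and 70, 2 (Ctsl and Grn), and 5 and 0; deviations of same-numbered arrays correlated at 0.085 over genes, and the labels give the numbers no shared source. Leaving out 1 array at a time gave 0 to 1 rises and 0 to 5 falls in all, and 0 in both lists. Such a fit has 3 arrays and assumes the lone array to vary like the other group. The causes of the other shifts were not tested. The median difference of the 41 genes ran from 0.20 (probe set means) to 0.31 (without GSI replicate 2). Background per probe was not analysed here, so the sizes for dim genes (Lgmn, Ctsh, Ctss, Gabarapl1) are uncertain. Groups of 2 are too small for an outlier test.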
